A study of Homo sapiens with 15 samples.

Results

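FOXL2, SMAD3 and FOXO1 are the 3 genes whose expression plasmids were delivered to the cells in this study, and their transcripts are described here one by one. Members were chosen by the gene symbol written beside each transcript in the quantification tables. This gave 20 of 227063 transcripts, of which 1 belongs to FOXL2, 15 to SMAD3 and 4 to FOXO1. RNA was measured in HGrC1 cells, an immortalized human granulosa cell line that is not luteinized and carries normal FOXL2 alleles. There were 5 conditions with 3 libraries each, lettered A, B and C. Cells of the condition Vectors received empty plasmids. They were transfected too, and below the words transfected conditions or libraries stand for all but Vectors. FOXL2WT cells received plasmids for SMAD3 and for wild-type FOXL2, and FOXL2C134W cells received SMAD3 with FOXL2 in which cysteine 134 is replaced by tryptophan. FOXL2WT + FOXO1 and FOXL2C134W + FOXO1 cells received the same combinations together with FOXO1-3A, which has alanine at residues 24, 256 and 319. Thus SMAD3 was co-transfected in all conditions but Vectors, and no condition received FOXL2 or FOXO1 alone. FOXL2 and FOXO1 carried a Flag tag and stood in different plasmid backbones. Cells were at passage 14, lipofected for 4 h and then kept serum-free for 24 h. Transfection was transient, so a larger share of cells with a plasmid and more plasmid RNA per cell cannot be told apart in these bulk samples. The labels do not say that the lettered libraries came from separate cultures, and p-values measure the spread between these libraries.

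FOXL2 is a forkhead transcription factor of granulosa cells that keeps the ovarian identity of the follicle, and the C134W change is the recurrent somatic mutation of adult granulosa cell tumors. SMAD3 carries signals of TGF-beta and activin receptors into the nucleus, where it binds DNA together with SMAD4 and with partners such as FOXL2. FOXO1 is a forkhead factor that AKT keeps out of the nucleus by phosphorylating the residues replaced in FOXO1-3A, so the mutant is nuclear and constitutively active. An expression plasmid usually carries the coding sequence of a gene without most of its untranslated regions. The tables name an annotated transcript for each read estimate and do not separate plasmid from endogenous RNA.

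The sequences below are stretches of the 3 coding sequences as the reference holds them, without the C134W or FOXO1-3A changes. They were read from the GRCh38 genome at the coding positions of GENCODE 44, 5′ to 3′ on the strand of the gene. FOXL2 lies on the minus strand at chr3:138944224-138947137 and has a single exon, so the 1128 bases of its coding sequence and its untranslated regions stand in 1 transcript. The window around codon 134 (chr3:138946291-138946353) has that codon, which encodes cysteine in the reference, in capitals. No base calls are in the tables, so both alleles are counted as the same transcript.

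FOXL2 codon 134: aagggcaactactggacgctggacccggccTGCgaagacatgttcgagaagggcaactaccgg

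SMAD3 lies on the plus strand at chr15:67063763-67195173. Its longest protein is encoded by 1275 bases in 9 coding exons of SMAD3-201. The first of them (chr15:67066155-67066360, 206 bases, start codon in capitals) holds 16.2% of the coding sequence. Of the 10 SMAD3 transcripts whose version and length are the same in GENCODE 44, it is found in SMAD3-201 only.

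SMAD3 first coding exon: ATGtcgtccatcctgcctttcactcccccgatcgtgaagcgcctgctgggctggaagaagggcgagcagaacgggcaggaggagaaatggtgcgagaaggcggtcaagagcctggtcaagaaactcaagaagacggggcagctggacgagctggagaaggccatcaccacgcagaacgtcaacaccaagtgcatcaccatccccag

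FOXO1 lies on the minus strand at chr13:40555667-40666641. Its 1965 coding bases are split between exon 1, which holds 32.1%, and exon 2, which holds 67.9%. FOXO1-202 and FOXO1-203 share the first 102 bases of exon 2 (chr13:40560759-40560860), shown here in lower case throughout. Codons 24, 256 and 319 (capitals in the windows chr13:40666126-40666158, chr13:40560708-40560740 and chr13:40560519-40560551) are the ones that FOXO1-3A replaces, and each ends an AKT motif (Arg, any, Arg, any, any, Ser or Thr). Codon 24 is held by FOXO1-201 alone among the 4 FOXO1 transcripts, and so are codons 256 and 319.

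FOXO1 exon 2 stretch: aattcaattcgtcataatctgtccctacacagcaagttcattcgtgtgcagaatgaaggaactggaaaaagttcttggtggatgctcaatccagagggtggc
FOXO1 codon 24: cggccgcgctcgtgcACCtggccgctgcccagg
FOXO1 codon 256: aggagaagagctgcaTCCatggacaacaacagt
FOXO1 codon 319: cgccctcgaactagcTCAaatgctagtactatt

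Exon 2 of FOXO1 is also an exon of another gene. AL133318.1, a long non-coding RNA on the same strand (chr13:40469955-40611127), has 4 exons, and the second of them (chr13:40559509-40560860, 1352 bases) has the same ends as exon 2 of FOXO1-201. It holds 1335 of the 1965 coding bases of FOXO1, codons 256 and 319 included. Among all GENCODE 44 transcripts, those of AL133318.1 shared 1305 of the 1935 words of 31 bases in the FOXO1 coding sequence, and the pseudogene FOXO1B shared 56. No transcript of another gene shared such a word with the coding sequence of FOXL2 or SMAD3, on either strand. AL133318.1 is not a member by its symbol, and its values are given beside those of FOXO1.

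**Figure D1:**
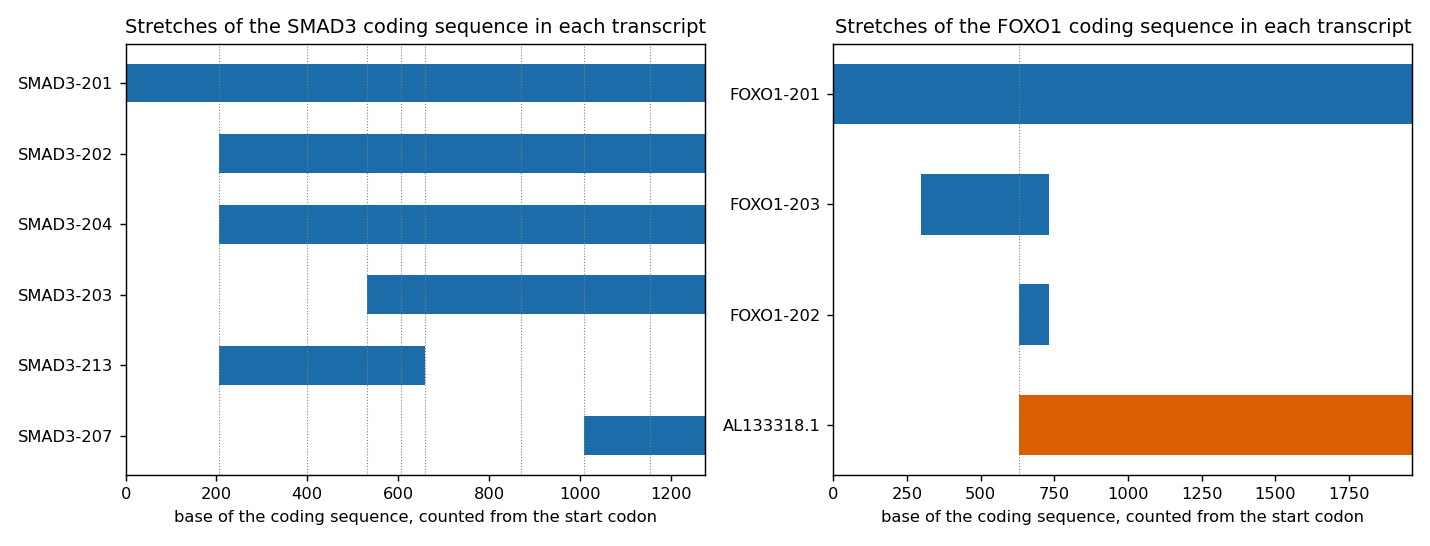
Stretches of the coding sequence of SMAD3 (left, 1275 bases) and FOXO1 (right, 1965 bases) that are held by each transcript described singly whose sequence was checked, as bars along the coding sequence in bases from the start codon. Dotted lines are the borders of coding exons, blue bars are transcripts of the gene and the orange bar is AL133318.1, which holds bases 631 to 1965 of FOXO1.

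The transcript tables held between 15042549 and 25457969 estimated reads per library. A count of 0 allows up to 3 reads, which is 0.127 to 0.163 CPM in the conditions for which bounds are given, and covers counting error only. Folds given below as at least set the mean CPM of 1 condition against the mean floor of the other. The lowest library against the highest floor gives less, such as 6298 for SMAD3-203 in FOXL2WT against Vectors. For FOXO1-202 in FOXL2WT + FOXO1 against FOXL2WT it gives 20.8. Levels are given as CPM, which are reads scaled for library size by TMM and not for length, or as TPM, which are scaled for both. Of the 13 granulosa cell markers 9 had a mean of at least 1 CPM, among them GATA4 and WT1, while the FSH receptor FSHR was at 0 in every library and the aromatase gene CYP19A1 did not exceed a mean of 0.0591 in any condition. Besides FOXL2, GATA4 fell and HSD17B1 rose in FOXL2WT against Vectors (log2 fold change -0.17 ± 0.0453 and 0.62 ± 0.162 SE, adjusted p = 0.0445 and 0.0368, edgeR). The stromal marker COL1A1, a collagen chain, fell in FOXL2WT and FOXL2C134W against Vectors (-0.42 ± 0.0532 and -0.19 ± 0.0529, edgeR adjusted p = 0.00014 and 0.0226), and the epithelial keratin KRT18 rose in FOXL2C134W (0.12 ± 0.0339, adjusted p = 0.0201). COL1A1 was higher in FOXL2C134W than in FOXL2WT (0.23 ± 0.0531, adjusted p = 0.0107), and its response to FOXO1-3A differed between them (-0.35 ± 0.0751, adjusted p = 0.0363). The summed epithelial markers EPCAM, KRT8 and KRT18 stood at 4208 to 4759 CPM, and the granulosa ones, FOXL2 included, at 253 to 802. The stromal ones stood at 1058 to 1576, the luteal ones at 2.63 to 5.88, and the theca and immune ones at up to 0.201 and 0.246. COL1A1 made up nearly all of the stromal sum, with means of 1141 to 1530 CPM. Means of the other stromal markers PDGFRA, DCN and LUM did not exceed 1.53, 0.205 and 0.195. That of EPCAM did not exceed 6.98, and those of the granulosa markers INHA and AMHR2 did not exceed 0.108 and 0.2955. For the marker changes named, DESeq2 called as many genes of each list as edgeR. Limma called 1 granulosa marker in FOXL2WT against Vectors, and 0 stromal and 0 epithelial markers in FOXL2C134W against Vectors. It called 0 stromal markers for the difference in response to FOXO1-3A. Of all genes, edgeR called 5.09% in FOXL2WT and 13.7% in FOXL2C134W against Vectors, 9.83% between them and 1.01% for the difference in response. The part of these markers in the values below was not tested.

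Of the 20 members 12 had a median of at least 10 reads in at least 1 condition and are described singly. FOXO1-204 and SMAD3-209 had no reads in any library, and the other 6 (SMAD3-205, SMAD3-206, SMAD3-210, SMAD3-212, SMAD3-214 and SMAD3-215) had at most 23.0 reads in any library. For 5 SMAD3 transcripts (SMAD3-205, SMAD3-206, SMAD3-208, SMAD3-211 and SMAD3-215) GENCODE 44 holds another version of another length, and no sequence features are given for them. Only FOXL2-201, SMAD3-201 and FOXO1-201 hold the whole coding sequence of the longest protein, and there it makes up 38.7% of FOXL2-201, 34.0% of FOXO1-201 and 19.7% of SMAD3-201.

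FOXL2 reads were low in Vectors and higher in every transfected library, less so with the mutant. FOXL2-201, the only FOXL2 transcript, had 192, 193 and 207 reads in Vectors A, B and C, 10559, 8427 and 12965 in FOXL2WT, 4416, 3482 and 2622 in FOXL2C134W, 5594, 8056 and 8333 in FOXL2WT + FOXO1 and 3084, 4121 and 3238 in FOXL2C134W + FOXO1. This was 8.79 ± 0.660, 562 ± 4.18, 147 ± 27.1, 380 ± 16.7 and 152 ± 20.3 CPM (SD, n = 3). Only the 2 conditions with the mutant overlapped. In the edgeR fit over all transcripts, FOXL2-201 rose by a log2 fold change of 6.00 ± 0.156 (SE) in FOXL2WT and of 4.07 ± 0.158 in FOXL2C134W against Vectors (adjusted p = 1.57e-09 and 1.28e-07). The level in FOXL2C134W was lower than in FOXL2WT by a log2 fold change of -1.93 ± 0.114 (adjusted p = 1.62e-05). With FOXO1-3A in both, it was lower in the mutant by -1.32 ± 0.113 (adjusted p = 4.47e-04). The paper describes protein levels of both FOXL2 forms and of FOXO1 as balanced, by immunoblot of cells cultured in parallel. The values here are of RNA, and protein was not measured in these libraries.

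The difference in FOXL2 between conditions with and without FOXO1-3A was smaller than these. From FOXL2WT to FOXL2WT + FOXO1 the log2 fold change of FOXL2 was -0.54 ± 0.0931 in the fit on summed genes (edgeR adjusted p = 0.0379), but this call was lost without any 1 of the 6 libraries (adjusted p = 0.11 to 0.266) and in the fit on transcripts (-0.57 ± 0.109, adjusted p = 0.253). From FOXL2C134W to FOXL2C134W + FOXO1 the log2 fold change was 0.05 ± 0.0984 (adjusted p = 0.933).

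**Figure D2:**
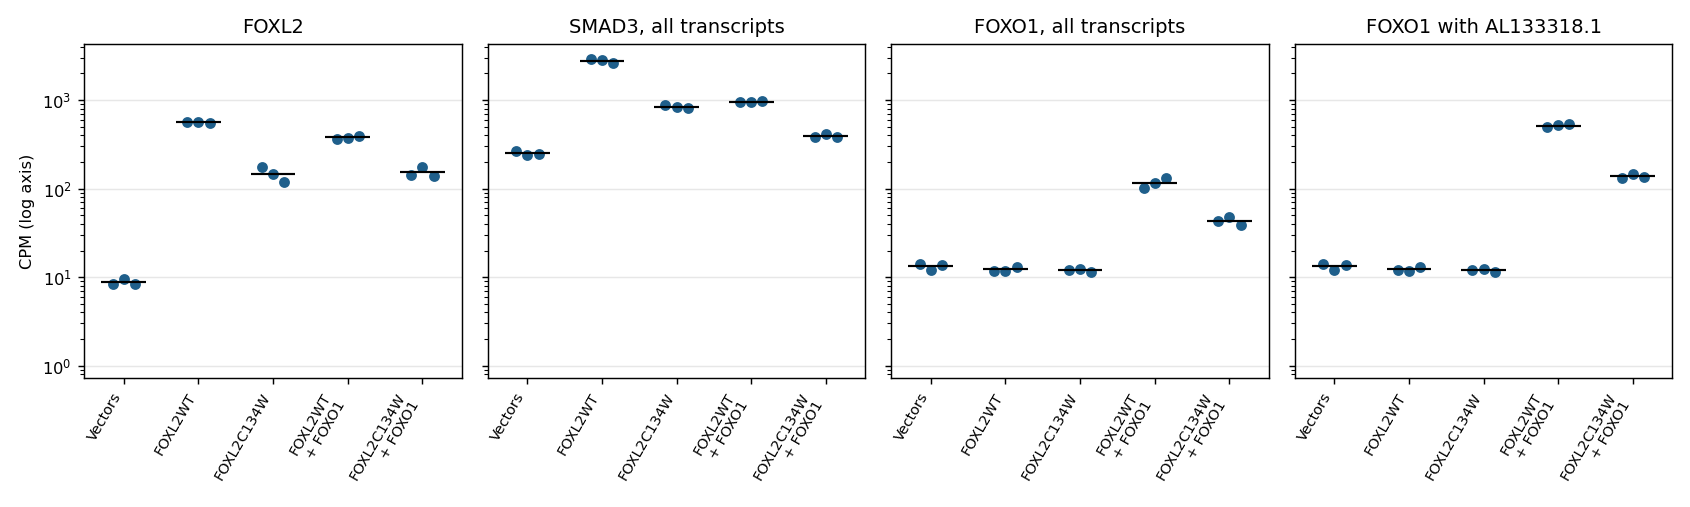
Summed CPM (log axis) of FOXL2, SMAD3, FOXO1, and FOXO1 together with AL133318.1 in the 5 conditions, with 1 point per library and a line at the mean of 3. FOXL2 and SMAD3 stand highest in FOXL2WT, and FOXO1 stands apart from Vectors only in the 2 conditions with FOXO1-3A.

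SMAD3 was well expressed without a SMAD3 plasmid and its sum over transcripts was higher in all 4 transfected conditions. Summed reads were 6027, 4854 and 6129 in Vectors A, B and C, 54270, 42028 and 60709 in FOXL2WT, 22356, 19923 and 17625 in FOXL2C134W, 14509, 20623 and 20262 in FOXL2WT + FOXO1 and 8215, 9648 and 8952 in FOXL2C134W + FOXO1. In CPM this was 251 ± 13.2, 2775 ± 150, 843 ± 37.9, 959 ± 9.04 and 392 ± 17.6 (SD, n = 3), with no overlap between conditions. Against Vectors the sum rose by a log2 fold change of 3.47 ± 0.0512 in FOXL2WT and 1.76 ± 0.0486 in FOXL2C134W (edgeR adjusted p = 8.14e-18 and 2.84e-13). It was lower in FOXL2C134W than in FOXL2WT by -1.71 ± 0.0473 (adjusted p = 3.07e-13). It fell where FOXO1-3A was added, by a log2 fold change of -1.51 ± 0.0471 with the wild type and -1.11 ± 0.0474 with the mutant (adjusted p = 7.28e-13 and 1.99e-10).

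The transcripts that carried SMAD3 in Vectors were not those that carried most of the rise. In Vectors, SMAD3-201, the transcript of the full-length protein with a long untranslated last exon, held 87.8% ± 1.11 of the SMAD3 reads (SD, n = 3), SMAD3-202 held 8.82% ± 1.40, SMAD3-204 held 2.40% ± 0.188 and SMAD3-213 held 0.696% ± 0.431. SMAD3-203, SMAD3-208 and SMAD3-211 had 0 reads in all 3 Vectors libraries. These 3 transcripts and SMAD3-213 together held 72.3% ± 0.599 of the SMAD3 reads in FOXL2WT, 57.6% ± 3.43 in FOXL2C134W, 59.0% ± 0.537 in FOXL2WT + FOXO1 and 32.2% ± 3.70 in FOXL2C134W + FOXO1 (SD, n = 3). Reads per transcript are estimates. Those that fall wholly in coding exons shared by several SMAD3 transcripts cannot be told apart between them.

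SMAD3-203 starts inside the gene, downstream of the first 3 coding exons, and holds the last 743 of the 1275 coding bases. It had 19671, 15180 and 21749 reads in FOXL2WT, 6746, 5841 and 4592 in FOXL2C134W, 4232, 6181 and 6039 in FOXL2WT + FOXO1 and 1071, 1699 and 1482 in FOXL2C134W + FOXO1. All 12 transfected libraries stood above the 0 reads of Vectors. Against a floor of 3 counts per library SMAD3-203 was at least 7475-fold higher in FOXL2WT and at least 1799-fold higher in FOXL2C134W than in Vectors (edgeR adjusted p = 5.45e-09 and 1.28e-07). With 0 reads in Vectors, it passed the filters only through conditions given the SMAD3 plasmid. These p-values are therefore no independent support for a rise.

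SMAD3-213 ends early and holds coding bases 207 to 658. Its reads were 19, 30 and 71 in Vectors, 7149, 5169 and 7225 in FOXL2WT, 2171, 2286 and 1704 in FOXL2C134W, 1622, 2262 and 2193 in FOXL2WT + FOXO1 and 423, 499 and 560 in FOXL2C134W + FOXO1. Every transfected library was above every Vectors library, with a log2 fold change of 7.61 ± 0.188 in FOXL2WT and 5.61 ± 0.206 in FOXL2C134W (adjusted p = 1.57e-09 and 1.28e-07).

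SMAD3-211 had 7441, 6024 and 8583 reads in FOXL2WT, 2640, 1937 and 1650 in FOXL2C134W, 1497, 2264 and 2119 in FOXL2WT + FOXO1 and 475, 617 and 425 in FOXL2C134W + FOXO1. SMAD3-208 had 5156, 4195 and 5940, then 1960, 1623 and 1540, then 1141, 1584 and 1601, and 333, 575 and 516 in the same order of conditions. Against the floor of Vectors, SMAD3-211 was at least 2913-fold higher in FOXL2WT and at least 651-fold higher in FOXL2C134W. For SMAD3-208 the bounds were 2021-fold and 538.5-fold. These too are folds of estimated reads, and both transcripts passed the filters only through conditions given the SMAD3 plasmid.

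SMAD3-201 itself also rose. It had 5321, 4200 and 5428 reads in Vectors, 14680, 11336 and 17047 in FOXL2WT, 8424, 8111 and 8012 in FOXL2C134W, 5560, 8131 and 8143 in FOXL2WT + FOXO1 and 4891, 5408 and 5437 in FOXL2C134W + FOXO1. The change against Vectors was 1.78 ± 0.0492 in FOXL2WT and 0.65 ± 0.0487 in FOXL2C134W on the log2 scale (adjusted p = 2.14e-09 and 7.25e-05), less than that of the summed gene. In CPM, FOXL2C134W + FOXO1 (230 ± 4.30, SD, n = 3) stood beside Vectors (220 ± 13.4), and their difference was not among the comparisons tested.

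SMAD3-202 and SMAD3-204 have their own first exons and hold all coding exons after the first. SMAD3-202 had 523, 500 and 459 reads in Vectors, 0 in all libraries of FOXL2WT and FOXL2C134W, 287, 0 and 0 in FOXL2WT + FOXO1 and 671, 534 and 310 in FOXL2C134W + FOXO1. Vectors and FOXL2WT libraries did not overlap, but the change was not called by edgeR for FOXL2WT (adjusted p = 0.408) or FOXL2C134W (adjusted p = 0.2) against Vectors. SMAD3-204 had 110 to 158 reads in Vectors and 101 to 387 in the transfected libraries, and its log2 fold change against Vectors was 0.31 ± 0.465 in FOXL2WT (adjusted p = 0.933). SMAD3-207, which keeps an intron, had 19 reads at most.

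**Figure D3:**
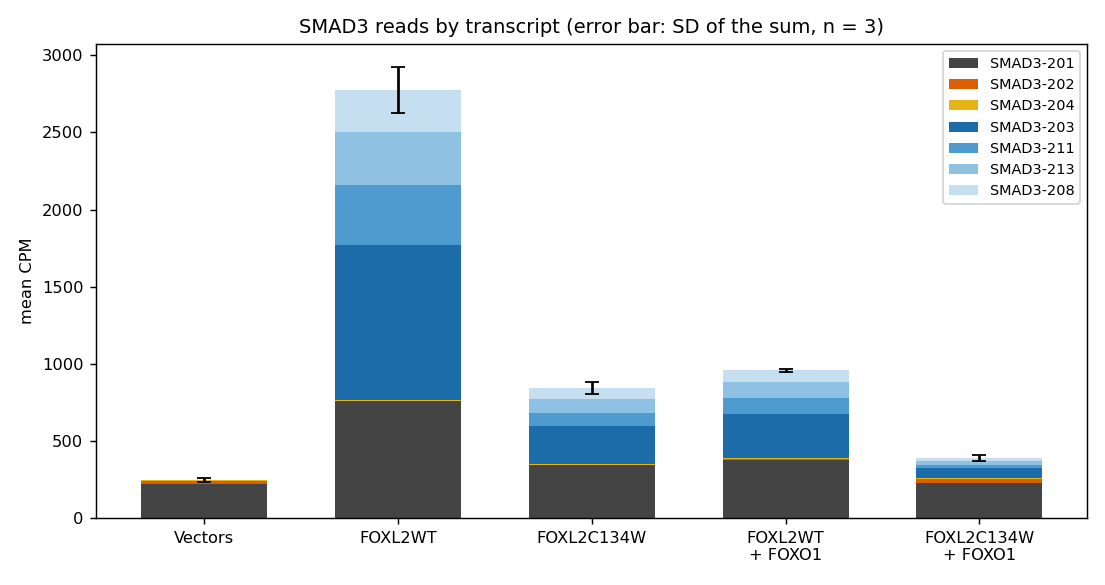
Mean CPM of the SMAD3 transcripts in the 5 conditions (n = 3 libraries each), stacked from 0, with the SD of the sum as the error bar. SMAD3-201 makes up most of the bar in Vectors, and the 4 transcripts in blue, of which 3 are at 0 in Vectors, make up 72.3% of SMAD3 reads in FOXL2WT.

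The shorter SMAD3 transcripts took similar parts of the rise of SMAD3 over Vectors in the 4 transfected conditions, while the part of SMAD3-201 was lower in FOXL2C134W + FOXO1. The rise is the level in a library less the mean of Vectors, in CPM. SMAD3-203 took 39.7% ± 0.0196 of it in FOXL2WT, 40.6% ± 2.44 in FOXL2C134W, 40.2% ± 0.510 in FOXL2WT + FOXO1 and 43.8% ± 4.59 in FOXL2C134W + FOXO1 (SD, n = 3). SMAD3-211 took 14.3% to 15.7%, SMAD3-213 took 13.6% to 14.7% and SMAD3-208 took 10.6% to 14.6%, as means of conditions. SMAD3-201 took 21.3% ± 0.356, 21.6% ± 4.40 and 22.1% ± 1.48 in FOXL2WT, FOXL2C134W and FOXL2WT + FOXO1, and 6.70% ± 3.10 in FOXL2C134W + FOXO1, where SMAD3-204 took 4.55% ± 2.79. Beside this, 16.2% of the 1245 words of 31 bases in the SMAD3 coding sequence are in no other checked SMAD3 transcript than SMAD3-201.

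The share of all SMAD3 reads in SMAD3-201 was lower where the rise was larger. It was 87.8% ± 1.11 in Vectors, 58.8% ± 2.43 in FOXL2C134W + FOXO1, 41.3% ± 3.92 in FOXL2C134W, 39.3% ± 0.938 in FOXL2WT + FOXO1 and 27.4% ± 0.618 in FOXL2WT (SD, n = 3). FOXL2C134W and FOXL2WT + FOXO1 overlapped, and no other neighbours in this order did. For each of the 6 comparisons made the libraries of the 2 conditions did not overlap, and the two-sided exact permutation test gave p = 0.1, the smallest that 3 libraries against 3 allow (0.1 after adjustment over 9 share comparisons). A limma fit of the log2 ratio of each transcript to the rest of its gene, over 52884 transcripts, called the lower share of SMAD3-201 against Vectors in FOXL2WT (-4.28, adjusted p = 1.03e-09, where 0.0359% of transcripts were called) and FOXL2C134W (-3.38, adjusted p = 1.75e-08, 0.0227% called). The higher share in FOXL2C134W + FOXO1 was called against FOXL2C134W (1.02, adjusted p = 0.0119, 0.0151% called) and against FOXL2WT + FOXO1 (1.14, adjusted p = 0.00417, 0.0321% called). It was not called between FOXL2C134W and FOXL2WT (0.90, adjusted p = 0.0518, 0.00756% called) or between FOXL2WT + FOXO1 and FOXL2WT (0.78, adjusted p = 0.0544, 0.0321% called).

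FOXO1 reads overlapped in the 3 conditions without FOXO1-3A and rose with it, more with the wild type than with the mutant. FOXO1-201 had 316, 246 and 338 reads in Vectors, 222, 177 and 304 in FOXL2WT, 303, 296 and 251 in FOXL2C134W, 1382, 2305 and 2494 in FOXL2WT + FOXO1 and 897, 1069 and 884 in FOXL2C134W + FOXO1. In CPM this was 13.2 ± 0.944, 12.3 ± 0.699, 11.97 ± 0.453, 106 ± 14.4 and 41.6 ± 3.80 (SD, n = 3). The 3 conditions without FOXO1-3A overlapped, and the other 2 stood apart from them and from each other. FOXO1-201 rose by a log2 fold change of 3.10 ± 0.118 from FOXL2WT to FOXL2WT + FOXO1 and of 1.80 ± 0.122 from FOXL2C134W to FOXL2C134W + FOXO1 (adjusted p = 2.92e-07 and 8.31e-05). Against Vectors the log2 fold change was -0.11 ± 0.149 in FOXL2WT and -0.15 ± 0.144 in FOXL2C134W (adjusted p = 0.926 and 0.823).

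FOXO1-202 and FOXO1-203 are short transcripts without an annotated protein. FOXO1-202, of 178 bases, had 99, 90 and 159 reads in FOXL2WT + FOXO1, 42, 39 and 25 in FOXL2C134W + FOXO1, 1 in library B of FOXL2C134W and 0 in all others. FOXO1-203, of 509 bases, had 59, 94 and 100 reads in FOXL2WT + FOXO1 and 0 in all 12 other libraries, those of FOXL2C134W + FOXO1 included. Against FOXL2WT at 0, these were at least 37.3-fold and 26.5-fold higher in FOXL2WT + FOXO1 than a floor of 3 counts per library, but edgeR called neither (adjusted p = 0.209 and 0.343).

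Most reads that came with FOXO1-3A were estimated for AL133318.1. This transcript had 5993, 8680 and 8377 reads in FOXL2WT + FOXO1, 1889, 2363 and 2253 in FOXL2C134W + FOXO1, 2 in FOXL2WT A and 0 in the other 8 libraries. Its level was 399 ± 5.02 CPM in FOXL2WT + FOXO1 and 94.9 ± 7.11 in FOXL2C134W + FOXO1 (SD, n = 3). It was at least 745-fold higher in FOXL2C134W + FOXO1 than in FOXL2C134W, and lower in FOXL2C134W + FOXO1 than in FOXL2WT + FOXO1 by a log2 fold change of -2.09 ± 0.0599 (edgeR on genes, adjusted p = 1.87e-12). Of the rise of FOXO1 and AL133318.1 together over Vectors, AL133318.1 took 79.6% ± 2.29 in FOXL2WT + FOXO1 and 76.0% ± 2.53 in FOXL2C134W + FOXO1, and FOXO1-201 took 18.4% ± 2.18 and 22.7% ± 2.19. Exon 2, which both hold, makes up 67.9% of the coding sequence. Reads that fall in exon 2 cannot be told apart between these transcripts, and the part of shared sequence in the AL133318.1 values was not tested. The table of 37787 gene counts has 0 entries named AL133318.1, so these reads are not in its FOXO1 counts or beside them.

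Whether these reads are counted changes the size of the FOXO1 response. On the summed reads of the FOXO1 transcripts the log2 fold change was 3.26 ± 0.0956 from FOXL2WT to FOXL2WT + FOXO1 and 1.84 ± 0.0992 from FOXL2C134W to FOXL2C134W + FOXO1 (edgeR adjusted p = 4.03e-13 and 5.73e-09). With the AL133318.1 reads added it was 5.40 ± 0.0618 and 3.53 ± 0.0612 (adjusted p = 9.4e-20 and 1.07e-16). The level in FOXL2C134W + FOXO1 was lower than in FOXL2WT + FOXO1 by -1.44 ± 0.0773 without these reads and by -1.91 ± 0.0459 with them (adjusted p = 5.31e-09 and 2.61e-14). Between the conditions without FOXO1-3A no FOXO1 change was called either way.

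**Figure D4:**
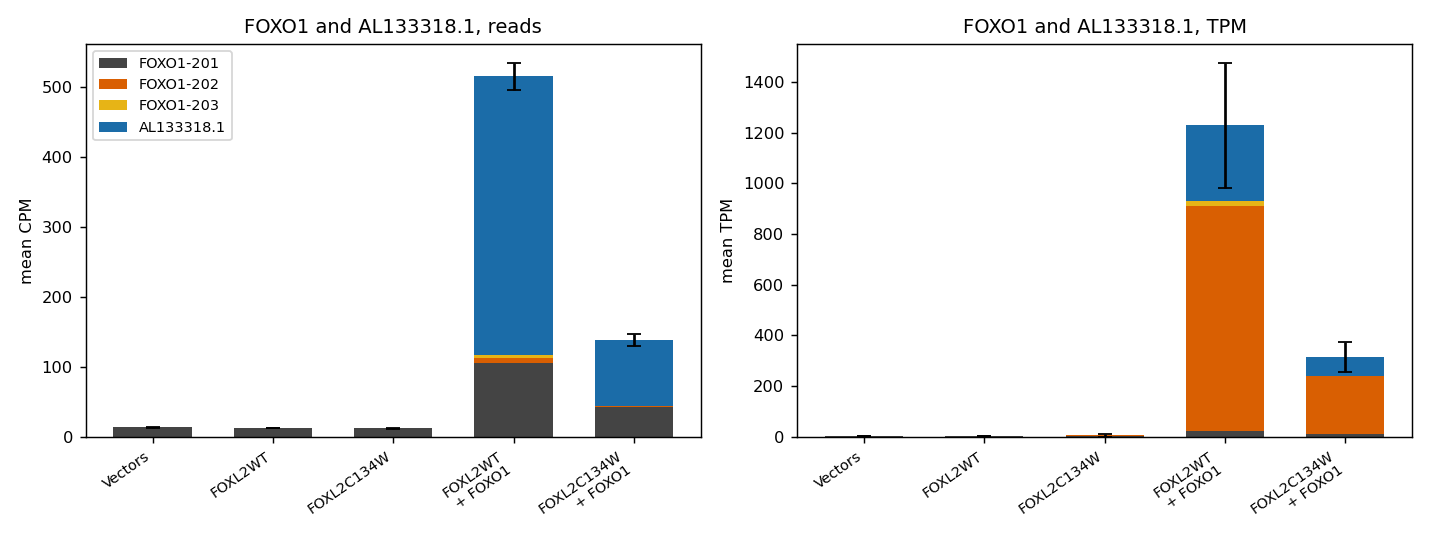
Mean CPM (left) and mean TPM (right) of FOXO1-201, FOXO1-202, FOXO1-203 and AL133318.1 in the 5 conditions (n = 3 libraries each), stacked from 0, with the SD of the sum as the error bar. AL133318.1 makes up most of the reads in the conditions with FOXO1-3A, while FOXO1-202, of 178 bases, makes up most of the TPM.

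On the TPM scale, which divides by length, the picture was set by FOXO1-202. The tables give this transcript an effective length of 7.84 bases, against 5530 for FOXO1-201 and 260 for FOXO1-203. FOXO1-202 held 5.28% ± 1.48 of the FOXO1 reads but 95.4% ± 1.49 of the FOXO1 TPM in FOXL2WT + FOXO1, and 3.58% ± 0.885 of the reads but 96.2% ± 0.934 of the TPM in FOXL2C134W + FOXO1 (SD, n = 3). Its single read in FOXL2C134W B counted as 8.56 TPM, above the 2.70 TPM of the 296 reads of FOXO1-201 in that library. The FOXO1 TPM was 950, 667 and 1169 in FOXL2WT + FOXO1 A, B and C, a wider spread than that of the CPM (116 ± 15.4). With offsets for average transcript length, the log2 fold change of summed FOXO1 reads became 8.47 from FOXL2WT to FOXL2WT + FOXO1 and 6.05 from FOXL2C134W to FOXL2C134W + FOXO1, and that of SMAD3 from Vectors to FOXL2WT became 6.13.

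The 3 genes were also compared per length of coding sequence. For each library the rise over the mean of Vectors was divided by the coding length, with AL133318.1 counted with FOXO1, a choice made after seeing the data. The FOXL2 rise was 490 ± 3.71 CPM per kb in FOXL2WT, 123 ± 24.1 in FOXL2C134W, 329 ± 14.8 in FOXL2WT + FOXO1 and 127 ± 18.0 in FOXL2C134W + FOXO1 (SD, n = 3). That of SMAD3 was 1980 ± 118, 464 ± 29.7, 555 ± 7.09 and 110 ± 13.8, and that of FOXO1 was 255 ± 9.84 and 63.5 ± 4.62 in the conditions with FOXO1-3A.

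Relative to FOXL2, the SMAD3 rise was lower in every library with FOXO1-3A than in every library without it. The ratio was 4.22, 4.08 and 3.80 in FOXL2WT A, B and C, 3.38, 3.77 and 4.42 in FOXL2C134W, 1.73, 1.71 and 1.63 in FOXL2WT + FOXO1 and 0.846, 0.850 and 0.908 in FOXL2C134W + FOXO1. FOXL2WT and FOXL2C134W overlapped (4.04 ± 0.212 and 3.86 ± 0.529, two-sided exact permutation test, p = 0.6, n = 3 and 3). The other 3 comparisons of this ratio had no overlap, with p = 0.1 in the exact permutation test, the smallest possible, and 0.125 after adjustment over 5 comparisons. The ratio of FOXO1 to FOXL2 was 0.776 ± 0.0157 in FOXL2WT + FOXO1 and 0.502 ± 0.0383 in FOXL2C134W + FOXO1 (exact permutation p = 0.1, n = 3 and 3).

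**Figure D5:**
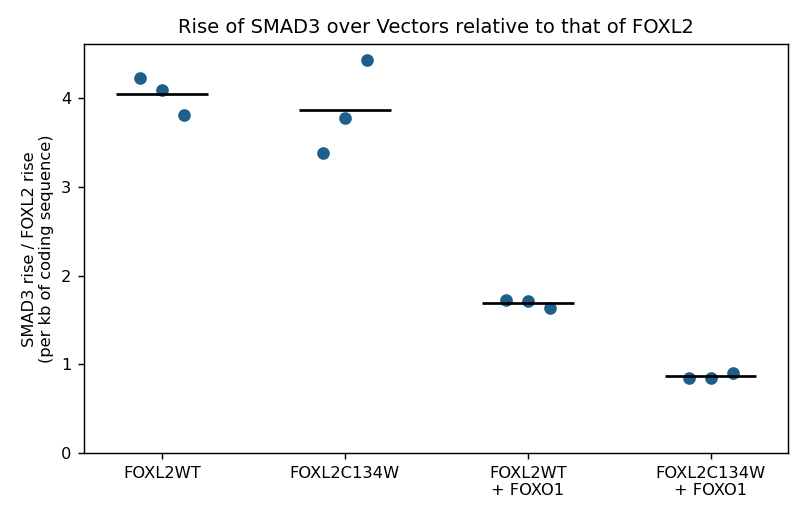
Rise of summed SMAD3 reads over the mean of Vectors divided by that of FOXL2, each per kb of coding sequence, in the 4 transfected conditions, with 1 point per library and a line at the mean. The ratio is 3.38 to 4.42 without FOXO1-3A, 1.63 to 1.73 in FOXL2WT + FOXO1 and 0.846 to 0.908 in FOXL2C134W + FOXO1.

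Set against all transcripts, members made up 6 of 9, 6 of 10 and 7 of 12 edgeR calls in the comparisons with FOXO1-3A, but these totals depended on the tool. The members are the genes delivered on plasmids. Higher calls of FOXL2 and SMAD3 against Vectors, and of FOXO1 where FOXO1-3A was added, were therefore set by the design, here and for summed genes. In FOXL2WT against Vectors 6 of the 20 members were called, all higher (0.122% of 56571 transcripts tested were called), and 6 were called higher in FOXL2C134W against Vectors (0.498%). Members tested and above the floor numbered 10 in each of these comparisons, and 9, 12, 11 and 12 in those that follow. Between FOXL2C134W and FOXL2WT 6 were lower in the mutant (0.0937%). From FOXL2WT to FOXL2WT + FOXO1 FOXO1-201 was called higher and 5 SMAD3 transcripts lower, which was 6 of the 9 transcripts called (0.0159%). From FOXL2C134W to FOXL2C134W + FOXO1 the same 6 members were called in the same directions, of 10 called (0.0177%). Between FOXL2C134W + FOXO1 and FOXL2WT + FOXO1 7 members were lower in the mutant, of 12 called (0.0212%). In these last 3 comparisons limma on log2(TPM + 1) called 34, 19 and 28 transcripts and DESeq2 called 1422, 1004 and 1098. The 20 members can be only a small part of the DESeq2 calls. How many of the limma calls were members is not given here.

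At the level of genes, 2 members were called in FOXL2WT against Vectors (5.09% of 15116 genes tested were called), 2 in FOXL2C134W against Vectors (13.7%), 2 in FOXL2C134W against FOXL2WT (9.83%) and 3 in FOXL2WT + FOXO1 against FOXL2WT, where 8 genes were called in all (0.0529%). It was 2 in FOXL2C134W + FOXO1 against FOXL2C134W (0.688%) and 3 in FOXL2C134W + FOXO1 against FOXL2WT + FOXO1 (0.112%). The change with added FOXO1-3A, which for FOXO1 includes the reads of its own plasmid, differed between the FOXL2C134W and FOXL2WT backgrounds for all 3 summed genes (interaction term of edgeR, 1.01% of genes called). The log2 difference was -1.42 ± 0.147 for FOXO1 (adjusted p = 4.14e-04), 0.40 ± 0.0658 for SMAD3 (adjusted p = 0.0116) and 0.59 ± 0.135 for FOXL2 (adjusted p = 0.046). The last of these was lost in 10 of 12 fits without 1 library (adjusted p = 0.00202 to 0.142), and that of SMAD3 was lost without library B of FOXL2WT + FOXO1 (adjusted p = 0.0515). That of FOXO1 was kept in all 12 (adjusted p up to 0.00459). All 3 genes were delivered on plasmids, and a difference in delivery between conditions cannot be told apart from a difference in RNA level. With offsets for transcript length none of the 3 differences was called (0.60, 0.06 and -2.42 for FOXL2, SMAD3 and FOXO1, edgeR adjusted p = 0.28, 0.931 and 0.3). No transcript passed the interaction test of edgeR (0% called), where 4047 had an unadjusted p under 0.05, while DESeq2 called 1473. For SMAD3-201 this term was 0.41 ± 0.068, while for SMAD3-203, SMAD3-208, SMAD3-211 and SMAD3-213 it was -0.14, 0.05, -0.04 and -0.29. The SMAD3 rise over Vectors per coding kb went from 1980 to 555 CPM with the wild type and from 464.5 to 110 with the mutant. Summed SMAD3 reads include the level found in Vectors, and its part in the summed difference was not tested.

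No other SMAD, FOXO or FOXL gene of a list of 12 was called. It held SMAD1, SMAD2, SMAD4, SMAD5, SMAD9, the inhibitory SMAD6 and SMAD7, FOXO3, FOXO4, FOXO6 and FOXL1, and also FOXL2NB, which is no relative but lies 80 bases from FOXL2 on the other strand and is counted among its neighbours too. All 12 were tested, and edgeR called 0 of them in each of the 7 comparisons, where 0 to 2 had an unadjusted p under 0.05. DESeq2 and limma also called 0. The median log2 fold change of the list was 0.07 in FOXL2WT and 0.03 in FOXL2C134W against Vectors, beside medians of 0.001 and 0.01 over all genes tested. FOXL2NB was at 3.31 to 3.97 CPM as means of conditions, and its log2 fold change was 0.16 ± 0.178 in FOXL2WT against Vectors (adjusted p = 0.681).

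Genes beside FOXL2 and SMAD3 were not called, and a few beside FOXO1 were. Of 25 annotated genes within 500 kb of FOXL2 and 19 within 500 kb of SMAD3, 8 and 7 were tested, and edgeR, DESeq2 and limma called 0 in any comparison, with 0 to 2 under an unadjusted p of 0.05. Of 25 within 500 kb of FOXO1, 23 had a symbol in the tables and 8 were tested. Besides AL133318.1, edgeR called SLC25A15, a mitochondrial ornithine carrier, higher in FOXL2C134W against Vectors and against FOXL2WT (log2 fold change 0.30 ± 0.0577 and 0.21 ± 0.0588, adjusted p = 0.00214 and 0.0302), and ELF1, an ETS transcription factor, lower in FOXL2C134W against Vectors (-0.27 ± 0.0558, adjusted p = 0.00373). These were 2 of 8 genes tested in FOXL2C134W against Vectors, where 13.7% of all genes were called. In both comparisons DESeq2 called as many genes of this list as edgeR, and limma called 0.

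The genes whose pattern over the 15 libraries was most like that of a member were named by Pearson's r of log2 CPM among 9510 genes, as a description. For FOXL2 these were the cytosolic tRNA synthetase genes YARS1 (r = 0.974), CARS1 (r = 0.968) and SARS1 (r = 0.966). For SMAD3 they were SLC6A9, a glycine transporter (r = 0.909), TXNRD2, a mitochondrial thioredoxin reductase (r = 0.896), and SESN2, a stress-response gene (r = 0.89). For FOXO1 they were AL133318.1 (r = 0.968), which shares exon 2, GORASP2, a Golgi stacking protein (r = 0.819), and UQCRB, a subunit of respiratory complex III (r = 0.812). The points share conditions, and the 15 values are not independent. YARS1 ranged from 239 to 252 CPM in Vectors and from 279 to 300 in the transfected libraries, with no overlap.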

How the data were processed

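RNA of HGrC1 cells was sequenced in 15 libraries (TruSeq Stranded mRNA, single-end reads). The authors quantified transcripts with Salmon 1.1.0 (build hg38, per the submitters' processing notes) and deposited, for each library, estimated counts, effective lengths and TPM of 227063 transcripts, and a table of 37787 gene counts. The annotation release is not given in the sources used here. Sequences and coordinates come from GRCh38 with GENCODE 44, in which 15 of the 20 members have the same version and length. The authors' own comparisons were made with tximport and DESeq2.

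Deposited estimated counts were rounded to whole numbers, filtered (filterByExpr, leaving 56571 transcripts and 15116 genes) and scaled by TMM. Library totals were 15042549 to 25457969 estimated reads. All 15 libraries entered 1 edgeR 4.0.16 quasi-likelihood fit for transcripts and 1 for summed genes, with Benjamini-Hochberg adjustment over all features and a threshold of 0.05. Summed transcript reads differed from the deposited gene counts by at most 0.47 reads for the 3 genes. CPM are relative to the reads in transcripts that passed the filter. Shares of reads were compared by exact permutation tests. Values at 0 were set to a floor of 3 counts per library for lower bounds. Alternatives were DESeq2 1.42.0, its size factors in edgeR, no filter, only the groups compared, a block for the replicate letter, limma 3.58.1 on deposited TPM as log2(TPM + 1) or log2(TPM + 0.1), offsets for transcript length, the deposited gene table, and each library left out in turn. Fitting scripts were tested on simulated data. The planned test of transcript usage (diffSpliceDGE) failed when tested on simulated data and is not reported. In its place the log2 ratio of each transcript to the rest of its gene (CPM + 0.1) was fitted with limma, which was chosen after seeing the data, as were the sums of FOXO1 with AL133318.1 and the rises per coding length. Described singly were members with a median of at least 10 reads in a condition. Other genes named are a family list, genes called within 500 kb of a member, the 3 genes most like each member (mean of at least 10 CPM), and markers. The members and lists were chosen with earlier results of these data known.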

Additional observations from a re-analysis of the deposited data

Results flagged for a closer look

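The effect of FOXO1-3A on the summed reads of each gene differed between the FOXL2C134W and FOXL2WT backgrounds in the interaction term of the edgeR fit. As the effect in FOXL2C134W minus that in FOXL2WT, the log2 difference was 0.59 ± 0.135 (SE) for FOXL2 (adjusted p = 0.046), 0.40 ± 0.0658 for SMAD3 (adjusted p = 0.0116) and -1.42 ± 0.147 for FOXO1 (adjusted p = 4.14e-04). With the reads of AL133318.1 counted for FOXO1 it was -1.88 ± 0.0954 (adjusted p = 6.4e-09). With offsets for transcript length none of these differences on the summed reads of the 3 genes was called (edgeR adjusted p = 0.28, 0.931 and 0.3 for FOXL2, SMAD3 and FOXO1), nor was any by limma on log2(TPM + 1) (adjusted p = 0.357, 0.93 and 0.311), where that of SMAD3 was 0.057. The FOXL2 call was lost in 10 of 12 fits without 1 library, and that of SMAD3 without library B of FOXL2WT + FOXO1 (adjusted p = 0.0515). All 3 genes were delivered on plasmids, and a difference in delivery between conditions cannot be told apart from a difference in RNA level. Outlying libraries were not looked for, since each condition had 3.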

How the results depend on the processing

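For the summed reads of the 3 genes, 307 of 339 values under alternatives kept their direction and side of the threshold and 32 were no longer past it. For single member transcripts this was 798 of 816, with 12 no longer called and 6 newly called. No value changed direction past the threshold. The cause was not tested for any of the changes below.

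The number of transcripts called depended on the tool and on which groups entered the fit. In the order FOXL2WT and FOXL2C134W against Vectors, FOXL2C134W against FOXL2WT, FOXO1-3A added to FOXL2WT, to FOXL2C134W, the 2 FOXO1 conditions, and the interaction, edgeR called 69, 282, 53, 9, 10, 12 and 0, DESeq2 called 1527, 1905, 1904, 1422, 1004, 1098 and 1473, and limma on log2(TPM + 1) called 41, 172, 29, 34, 19, 28 and 14. Limma on log2(TPM + 0.1) called 168 and 23 in FOXL2C134W against Vectors and against FOXL2WT and 36, 21, 29 and 23 in the last 4. Without the filter edgeR called 35, 142 and 31 in the first 3. With only the groups compared it called 7, 15 and 6 in the first 3, 3 in the fifth and 5 in the sixth. Leaving out 1 library gave 22 to 48, 121 to 172, 10 to 107, 12 to 20 (sixth) and 0 to 5 (interaction).

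The log2 change of FOXL2 from FOXL2WT to FOXL2WT + FOXO1 was not called by limma (-0.58 with either pseudocount) or with length offsets (-0.56), nor without 1 library (-0.58 to -0.53). The FOXL2 interaction was 0.60 with only the groups compared, 0.61 and 0.62 by limma and 0.60 with length offsets, and 0.47 to 0.74 without 1 library. That of SMAD3 was 0.057 and 0.0554 by limma and 0.0573 with length offsets, and 0.37 to 0.45 without 1 library. That of FOXO1 was -2.53 and -2.63 by limma and -2.42 with length offsets, none of them called. FOXO1 in FOXL2C134W + FOXO1 against FOXL2WT + FOXO1 was -1.94 and -1.95 by limma, not called.

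As a share of TPM the difference of SMAD3-201 was -51.9, -49.6, 2.25, 1.92, 5.83 and 6.16 percentage points in the first 6 comparisons, and that of FOXO1-201 was -97.5, -70.8 and 1.35 in the last 3 of them. As a share of FOXO1 with AL133318.1, FOXO1-201 differed by -79.2, -69.7 and 9.69. The log2 ratio by limma, which has a threshold that 3 libraries can pass, called SMAD3-201 (-4.28, -3.38, 1.02 and 1.14) and FOXO1-201 in FOXL2WT + FOXO1 against FOXL2WT (-3.61).

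Of 30 pairs of same-letter libraries 1 had a correlation of deviations over 0.1 (range -0.122 to 0.131), and 7 were the best match. These values do not show how the lettered libraries were made. With the replicate block edgeR called 47, 202, 27, 9, 8, 11 and 0 transcripts, and no call on summed reads changed. The other tool, filter, block and scaling for the test of transcript usage were not run, since that test is not reported.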
